A study of Homo sapiens with 18 samples.

Results

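The genotype by interferon interaction at 48 h compares how far each gene moved under interferon in SP100 knockout (KO) cells and in wild-type (WT) cells. It is the change from 0 to 48 h in KO minus the same change in WT. It was defined by the sample labels, which give 12 of the 18 libraries of the series: 3 each of WT at 0 h, WT at 48 h, KO at 0 h and KO at 48 h. All libraries came from NIKS cells, which are an established human keratinocyte line (normal, immortalized) kept on growth-arrested J2/3T3 mouse fibroblasts. The 48 h groups received human interferon alpha 2a at 25 ng/mL and the 0 h groups were untreated. The column names give a single line per genotype, Vec2 for WT and KO5 for KO, so genotype and line cannot be told apart, and no untreated library taken at 48 h was analysed. The remaining 6 libraries, at 12 h, entered the estimate of the spread, and their values are set beside the 48 h values.

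Interferon alpha is a type I interferon. Its receptor activates the kinases JAK1 and TYK2, which act on STAT proteins. These join IRF9 to form ISGF3, the factor that binds interferon-stimulated response elements (ISREs) in the promoters of interferon-stimulated genes. Many of those genes are transcribed at a low level in untreated cells. SP100 encodes a resident protein of PML nuclear bodies and is itself induced by interferon. An interaction can come from a genotype difference that is present before treatment and closes, from one that opens under interferon, or from both, and each gene was examined for which of these the levels show.

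Expression is given as RPKM, reads scaled to gene length and to the total of the library, and errors are SD with n = 3 unless an SE is named. Fold changes and interactions are on the log2(RPKM + 1) scale, which understates changes of genes at low levels. A gene was called when its limma p-value, adjusted by Benjamini-Hochberg over 13280 genes, was under 0.05. The files hold no counts, so total depth is unknown. Relative depth recovered from low values ran from 0.86 to 1.243 over the 12 libraries. Across genes, Pearson correlations between replicates were 0.985 to 0.989. Of the basal keratinocyte markers 11 of 11 were measured, among them KRT5 at 7849 ± 78.8 RPKM and KRT14 at 6671 ± 245.1 RPKM in untreated WT. In bulk RNA, fewer cells of a type and less RNA per cell cannot be told apart.

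The promoters of the genes with an interaction were examined for the core of the ISRE, GAAANNGAAA, on either strand. RefSeq promoters (GRCh38.p14, 250 bases before to 50 after the first listed start of each gene) were found for 7 of the 11 genes called at 48 h, and 7 of 7 held a match. The share was 3.65% over all 27305 RefSeq promoters, 2.84% over the 9653 tested genes with a promoter, and 56% over 75 promoters of listed interferon genes. The first 7 windows below belong to called genes. The last 3 belong to SAMD9, GBP1 and TLR3, whose interaction missed the threshold and whose KO and WT levels separated at 48 h. They were picked from those that hold a match: of the 14 uncalled genes described below, 12 had a promoter and 6 held a match. The matches in SYNJ2BP, IFIH1 and HERC5 are not printed. Like the 3 printed genes, SYNJ2BP was called between KO and WT at 48 h and not at 0 h. BNIP3 and TIMP3, also called at 48 h and not at 0 h, held no match. Windows run 5′ to 3′ in the direction of the gene, with 1 match per gene in capitals. IFIT1, IFIT3, ISG15, DDX60 and IFITM3 hold 2 matches each, which overlap in ISG15, and the one nearer the start is printed for all but IFIT1.
IFIT1: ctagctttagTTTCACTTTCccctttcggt
IFIT3: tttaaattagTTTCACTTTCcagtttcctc
IFI44: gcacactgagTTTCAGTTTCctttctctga
ISG15: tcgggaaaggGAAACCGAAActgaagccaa
DDX60: gaggagaaagGAAACCGAAActcccgccgg
IFITM3: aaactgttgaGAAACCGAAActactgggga
MX1: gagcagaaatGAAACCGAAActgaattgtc
SAMD9: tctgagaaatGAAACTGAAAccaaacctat
GBP1: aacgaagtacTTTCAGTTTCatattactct
TLR3: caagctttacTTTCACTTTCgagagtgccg

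The IFIT1 window lies at chr10:89392497-89392526 (+ strand), with its match beginning 116 bases before the start. The windows of IFIT3 (chr10:89327865-89327894, +), ISG15 (chr1:1013380-1013409, +) and IFI44 (chr1:78649761-78649790, +) have matches that begin 122, 107 and 18 bases before the start. Those of DDX60 (chr4:168318786-168318815, − strand) and IFITM3 (chr11:320876-320905, −) begin 53 and 35 bases before it. The MX1 match (chr21:41420559-41420588, +) begins 11 bases after the first listed start, in the first exon. The matches of SAMD9 (chr7:93118096-93118125, −) and GBP1 (chr1:89065316-89065345, −) begin 136 and 127 bases before the start, and that of TLR3 (chr4:186069142-186069171, +) begins 4 bases before it. The matches are descriptions of the letters and not measured binding. The deposited values were made on hg19, so these coordinates were not joined to them. Among listed interferon genes, a match was found in 7 of 11 promoters of genes called between KO and WT at 0 h only in 7 of 8 called at 48 h only, and in 2 of 5 called at both times.

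Of 13280 genes, 11 passed the threshold for the interaction at 48 h, or 0.0828%. The change under interferon was larger in KO for 9 of them (0.0678%), IFI44, ISG15, IFIT1, OASL, DDX60, IFIT2, IFIT3, MX1 and IFITM3, and smaller in KO for 2 (0.0151%), OAS2 and USP18. All 11 rose under interferon in both genotypes. From 0 to 48 h 1702 genes (12.8%) changed in WT, 866 higher (6.52%) and 836 lower (6.3%), and 1770 (13.3%) in KO, 784 higher (5.9%) and 986 lower (7.42%). All 11 belong to the 108 listed interferon genes that were tested. Without adjustment 826 genes had a p-value under 0.05. Restricting the model to the 12 libraries called 3 genes (OASL, IFIT1 and IFI44), and 7 were called when WT replicate 2 at 48 h was omitted.

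KO and WT were then compared at each time. At 0 h 650 genes (4.89%) differed, 375 higher and 275 lower in KO, and at 48 h 556 (4.19%) differed, 269 higher and 287 lower. Without WT replicate 2 at 0 h the first count was 390, and it was 397, 402 and 418 without KO replicate 2, KO replicate 1 or WT replicate 3 at 0 h. On the libraries of each comparison alone the counts were 306 and 250. The comparisons share no libraries. The genes called at both times numbered 334, which is 51.4% of the 0 h calls and 60.1% of the 48 h calls, and 334 of 334 had the same direction. Of the 316 genes called at 0 h only, 8 were called in the interaction, and of the 222 called at 48 h only, 1 was. Most genes called at a single time had no called difference between times.

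**Figure D1:**
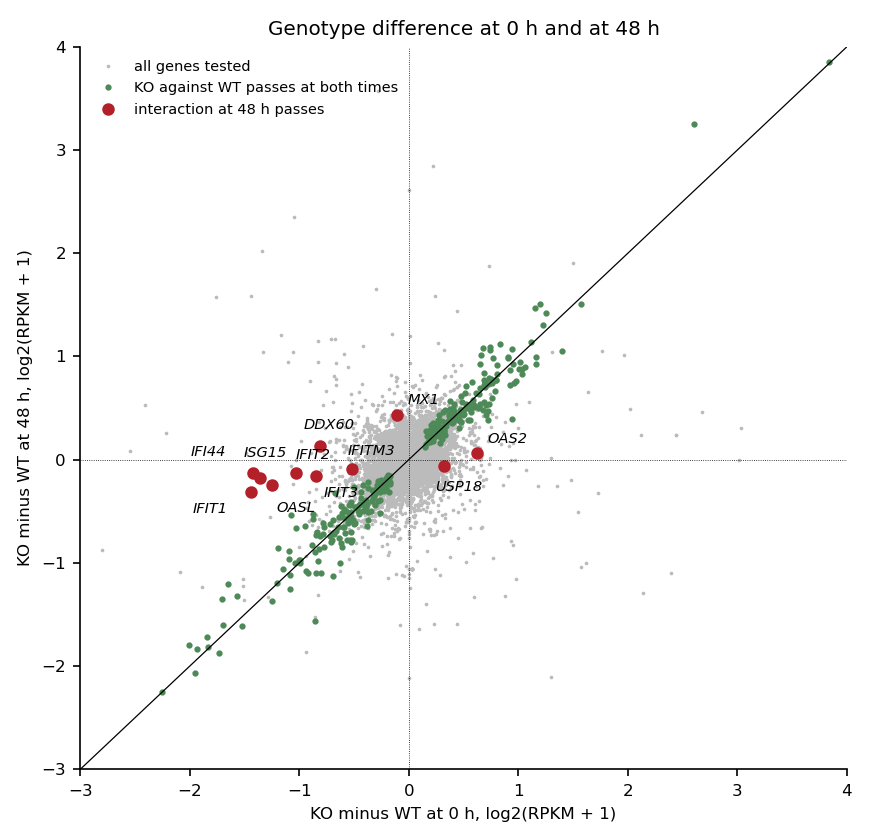
Each point is a gene, plotted by the KO minus WT difference in log2(RPKM + 1) at 0 h (x axis) and at 48 h (y axis), and the diagonal marks equal differences. The 334 genes called at both times (green) follow the diagonal, while 10 of the 11 genes called in the interaction (red) lie near the horizontal line, farther from 0 at 0 h than at 48 h, and MX1 lies above 0 at 48 h.

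Of the IFIT genes, IFIT1 encodes a protein that binds viral RNA lacking host cap marks and blocks its translation. IFIT1 was at 5.15, 3.86 and 3.94 RPKM in untreated WT against 0.81, 0.83 and 1.22 RPKM in untreated KO. At 48 h it was at 268.6, 276.9 and 269.6 RPKM in WT and at 221.8, 213.3 and 220.2 RPKM in KO. The groups were separate at both times, and the separation on the log scale was wider before interferon. KO minus WT was -1.44 at 0 h (SE 0.0794, adjusted p 1.43e-08) and -0.31 at 48 h (adjusted p 0.035), which gives an interaction of 1.13 (SE 0.112, adjusted p 0.000215). The IFIT1 call at 48 h was lost in 9 of 25 alternative fits. At 12 h the IFIT1 difference was 0.0036, with a 95% interval of -0.165 to 0.172.

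IFIT2 was at 3.51, 3.70 and 3.35 RPKM in untreated WT against 1.3, 1.07 and 1.27 RPKM in untreated KO. At 48 h it was at 14.4, 20.1 and 17.9 RPKM in WT and 16.2, 14.6 and 16.3 RPKM in KO, where the groups overlapped. Its interaction was 0.90 (SE 0.125, adjusted p 0.00549). IFIT3 had untreated values of 5.82, 5.07 and 4.41 RPKM in WT and 2.39, 2.38 and 2.33 RPKM in KO, and at 48 h 242.0, 269.5 and 259.8 RPKM in WT and 232.7, 223.4 and 232.1 RPKM in KO. The KO values lay below the WT values at both times, with a difference of -0.85 at 0 h (adjusted p 3.04e-07) and -0.16 at 48 h (adjusted p 0.182), and the interaction was 0.69 (SE 0.0876, adjusted p 0.00217). IFIT5, the other listed member, had an interaction of -0.29 (adjusted p 0.775), so 3 of 4 IFIT genes were called, against 0.0828% of all genes. The IFIT genes are close relatives, and how reads shared between them were divided is not stated in the sources used here.

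OASL, an OAS-like protein that enhances RIG-I signalling, had the smallest p-value of the interaction. It was at 3.25, 2.49 and 2.54 RPKM in untreated WT against 0.56, 0.52 and 0.64 RPKM in untreated KO. At 48 h the values were 33.6, 37.4 and 35.2 RPKM in WT and 30.1, 30.2 and 28.7 RPKM in KO. KO was lower in all libraries at both times, by -1.25 at 0 h (adjusted p 7.4e-09) and -0.25 at 48 h (adjusted p 0.0424), and the interaction was 1.01 (SE 0.0913, adjusted p 0.00012). The call at 48 h was lost in 15 of 25 alternative fits. In the other direction, OAS2, a sensor of double-stranded RNA, was higher in KO before treatment. It was at 6.82, 6.30 and 7.63 RPKM in untreated WT against 12.4, 10.6 and 10.7 RPKM in untreated KO.

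At 48 h OAS2 was at 294.7, 317.2 and 311.5 RPKM in WT and 325.7, 321.4 and 317.0 RPKM in KO, where the groups overlapped. The difference was 0.63 at 0 h (adjusted p 8.53e-06) and 0.06 at 48 h (95% interval -0.069 to 0.194), with an interaction of -0.56 (SE 0.0877, adjusted p 0.0159). OAS1 (-0.33, adjusted p 0.862) and OAS3 (-0.17, adjusted p 0.525) were not called. The OAS list thus held 1 gene with a positive and 1 with a negative called interaction.

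ISG15 is a ubiquitin-like modifier that is attached to newly made proteins in interferon-treated cells. Its untreated values were 18.5, 15.7 and 13.6 RPKM in WT and 4.46, 5.68 and 6.77 RPKM in KO, 2 separate groups. At 48 h it was at 654.9, 649.7 and 715.1 RPKM in WT and 552.1, 678.2 and 563.6 RPKM in KO, with overlap through KO replicate 2. The difference went from -1.36 at 0 h (adjusted p 2.16e-06) to -0.18 at 48 h (95% interval -0.426 to 0.0751), and the interaction was 1.18 (SE 0.167, adjusted p 0.00579). At 12 h ISG15 was still lower in KO in each library, by -0.35 with a 95% interval of -0.598 to -0.0965.

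USP18 removes ISG15 from its targets and also restrains the interferon receptor. It was at 1.28, 1.36 and 1.26 RPKM in untreated WT against 2.03, 1.82 and 1.75 RPKM in untreated KO, and at 48 h at 38.6, 36.6 and 38.7 RPKM in WT and 36.1, 35.7 and 36.9 RPKM in KO. KO was higher at 0 h (0.32, adjusted p 0.000629), the groups overlapped at 48 h (-0.07, adjusted p 0.558), and the interaction was -0.38 (SE 0.0669, adjusted p 0.0426). This call was the nearest to the threshold and was lost in 22 of 25 alternative fits, with adjusted p of 0.00532 to 0.365. USP18 has a near-identical copy in the genome, so its reads are uncertain. HERC5, the ligase that attaches ISG15, was lower in KO at both times (-1.07 at 0 h and -0.54 at 48 h, adjusted p 5.95e-07 and 0.000892). Its interaction of 0.54 was not called (adjusted p 0.21). With a pseudocount of 0.1 it was 1.33 and called, since HERC5 was at 0.57, 0.58 and 0.40 RPKM in untreated KO.

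IFI44 is a cytoplasmic interferon-induced protein with the largest interaction of the called genes. It was at 3.39, 4.66 and 3.47 RPKM in untreated WT against 0.74, 1.19 and 0.50 RPKM in untreated KO. At 48 h the values were 180, 176.2 and 176.0 RPKM in WT and 169.4, 154.3 and 163.9 RPKM in KO. The KO values of IFI44 lay below the WT values at both times. The untreated difference of -1.43 (adjusted p 5.95e-07) stood against -0.13 at 48 h (95% interval -0.359 to 0.106), and the interaction was 1.3 (SE 0.155, adjusted p 0.00118). IFI44L, its neighbour and relative, was at 0.04 ± 0.0361 RPKM in untreated WT against 0.0567 ± 0.0603 RPKM in untreated KO, and had an interaction of -0.04 (adjusted p 0.962). With a pseudocount of 0.1 the interactions of IFI44, OASL and IFIT1 were 2.04, 1.83 and 1.76, all 3 still called.

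DDX60, a helicase linked to RIG-I signalling, was at 9.68, 8.57 and 11.4 RPKM in untreated WT against 4.64, 4.43 and 6.64 RPKM in untreated KO. At 48 h it was at 154.5, 167.8 and 177.4 RPKM in WT and 189.8, 173.7 and 183.8 RPKM in KO. The groups were separate at 0 h and overlapped at 48 h, and the interaction was 0.94 (SE 0.15, adjusted p 0.0174). This call was lost in 8 of 25 alternative fits, among them the omission of WT replicate 1 at 0 h and of KO replicate 1 at 0 h.

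IFITM3, a membrane protein that hinders viral fusion, was by far the most abundant of the called genes before treatment. It was at 156.8, 163.6 and 163.7 RPKM in untreated WT against 116.0, 111.0 and 110.3 RPKM in untreated KO, and at 48 h at 1737, 1703 and 1586 RPKM in WT and 1591, 1678 and 1445 RPKM in KO. The difference was -0.52 at 0 h (adjusted p 8.83e-06), -0.29 at 12 h (95% interval -0.398 to -0.178) and -0.09 at 48 h (95% interval -0.204 to 0.0158). Its interaction of 0.42 (SE 0.073, adjusted p 0.0393) was lost in 19 of 25 alternative fits. IFITM1 and IFITM2, near relatives, had interactions of similar size, 0.43 and 0.35, and were not called (adjusted p 0.535 for each).

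MX1, a dynamin-like GTPase that blocks viral replication, was the exception among the 11 on the log2(RPKM + 1) scale. It was at 0.41, 0.22 and 0.32 RPKM in untreated WT against 0.22, 0.28 and 0.17 RPKM in untreated KO, groups that overlapped. At 48 h it was at 363.8, 357.4 and 347.7 RPKM in WT and 483.3, 486.2 and 477.9 RPKM in KO. At 12 h the levels were 580 ± 7.18 RPKM in WT and 808 ± 3.97 RPKM in KO. The KO libraries were thus higher at both treated times, at 139% of WT at 12 h and 135% at 48 h. KO minus WT was -0.10 at 0 h (adjusted p 0.227) and 0.44 at 48 h (adjusted p 1.73e-05), and the interaction was 0.54 (SE 0.0637, adjusted p 0.00118). With a pseudocount of 0.1 the interaction was 0.79 with an adjusted p of 0.243, since the untreated levels are close to 0. MX2 had an interaction of -0.14 (adjusted p 0.779). Its untreated means were 0.00667 RPKM in WT and 0.04 RPKM in KO, too low for this scale to show an untreated difference.

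**Figure D2:**
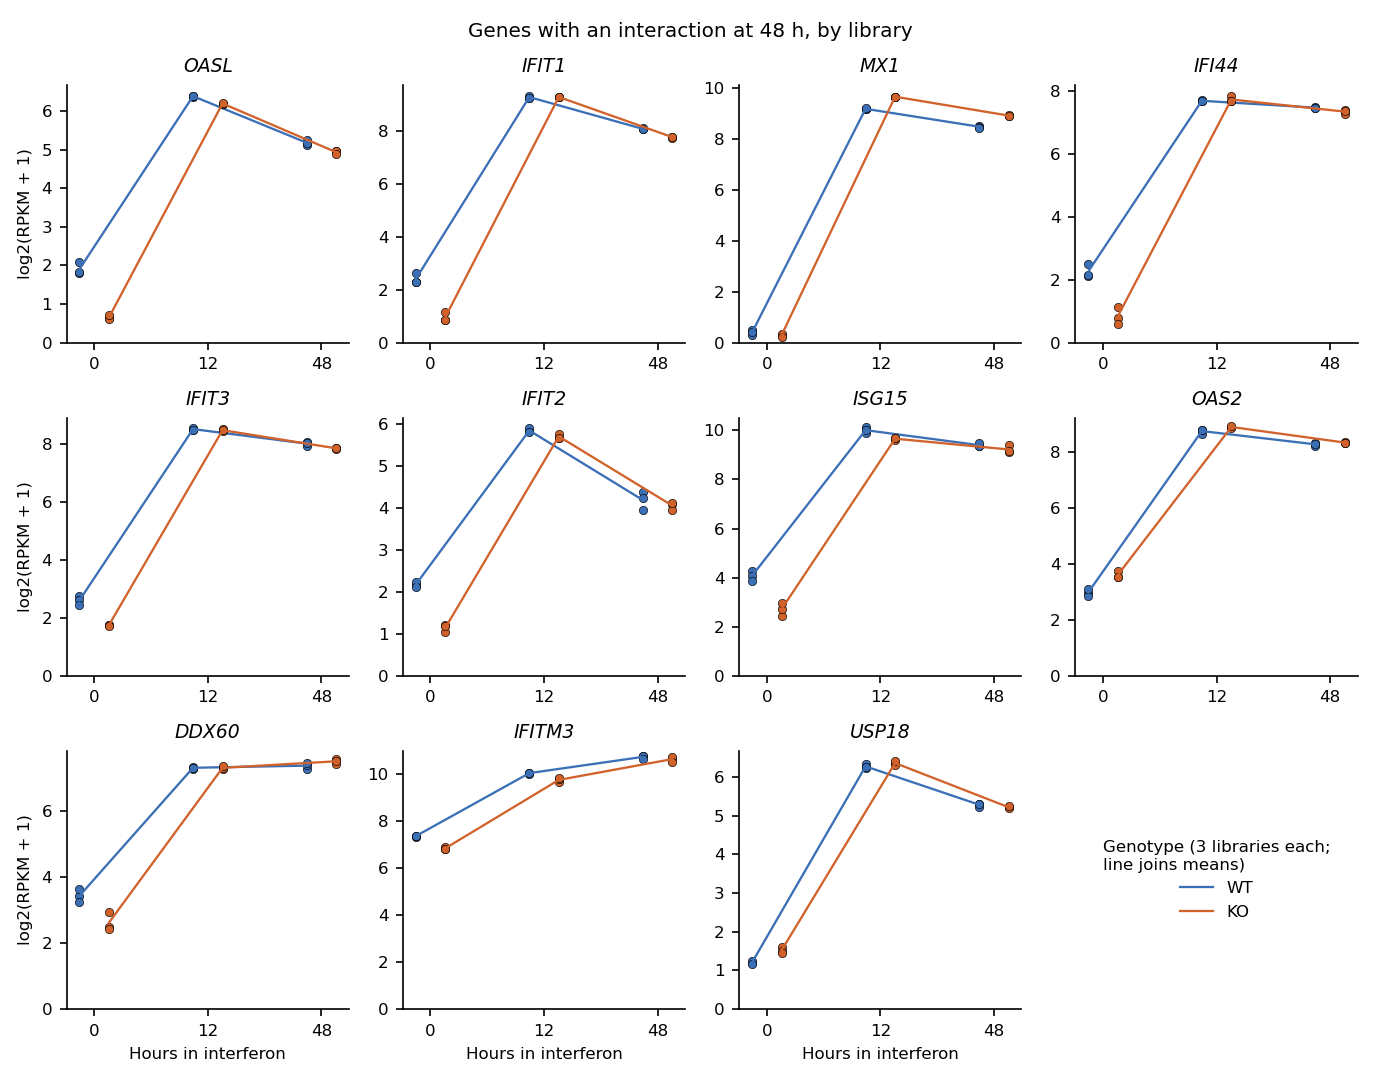
Each panel shows log2(RPKM + 1) of a called gene in each library (points) at 0, 12 and 48 h, evenly spaced, with lines joining the means of WT (blue) and KO (orange). The genotypes are apart at 0 h and closer at 12 and 48 h in each panel except MX1, where KO is above WT at 12 and 48 h.

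Counted over the 11 genes, KO against WT was called at 0 h only for 8, at 48 h only for 1 (MX1), and at both times in the same direction for 2 (IFIT1 and OASL). The untreated groups did not overlap for 10 of 11 genes, and the 48 h groups did not overlap for 5. These 11 genes were chosen by an interaction on the same libraries, and the share of all genes without overlap was not counted. The 0 h difference, taken with opposite sign, came to 82.8% to 128% of the interaction for the 10 genes other than MX1 and to 19.3% for MX1. For MX1 this share depends on the 1 added to each RPKM, since its untreated levels were close to 0. Its mean untreated RPKM in KO was 70.5% of WT, from groups that overlapped. A value over 100% means that the differences at 0 h and at 48 h had the same sign. It does not show that a difference lasted between those times. The 95% interval of the 48 h difference included 0 for 7 of 11 genes, which does not show that the levels were equal. The count of 8 was 4 without WT replicate 1 at 0 h, 5 without KO replicate 2 at 0 h, and 2 in fits on the libraries of each comparison alone. The interactions at 12 and 48 h share the untreated libraries. At 12 h the estimates were 1.47 for IFI44, 1.45 for IFIT1, 1.06 for OASL and 0.58 for MX1, all called. Those of ISG15, IFIT2 and IFIT3 were 1.01, 0.89 and 0.81, also called. OAS2 (-0.48), DDX60 (0.81), IFITM3 (0.23) and USP18 (-0.23) were not called at 12 h (adjusted p 0.0556, 0.0556, 0.631 and 0.571).

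**Figure D3:**
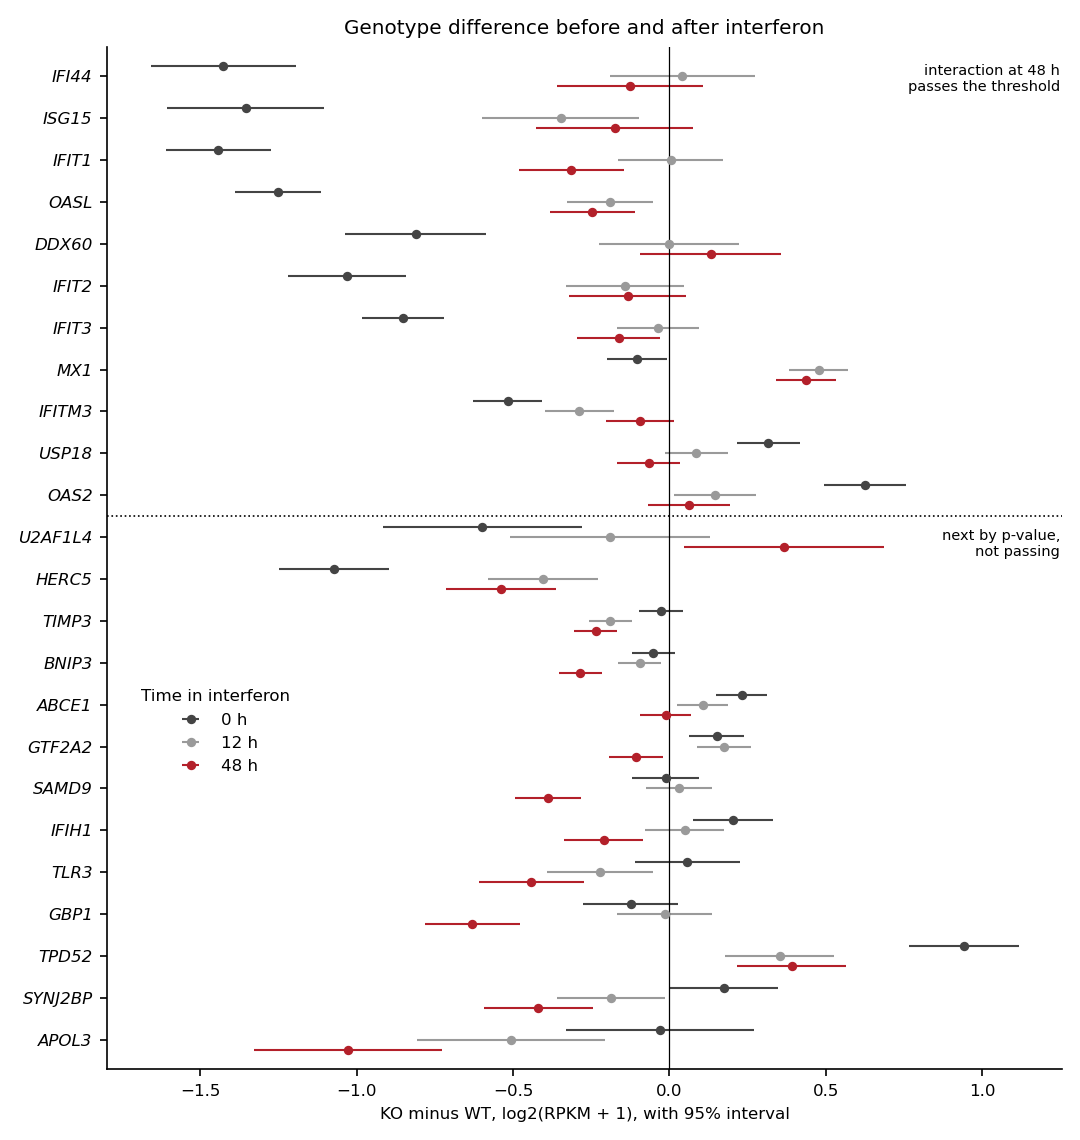
Points are KO minus WT in log2(RPKM + 1) at 0 h (black), 12 h (grey) and 48 h (red), with 95% intervals from the fit, for the 11 called genes (above the dotted line) and 13 of the next 14 by p-value (below it; NALF2, at 2.61, 3.04 and 3.25, is off the scale). In the upper part the 0 h points lie apart from the others, while for SAMD9, GBP1 and APOL3 in the lower part the 48 h points lie farthest from 0.

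In RPKM rather than on the log scale, the called genes looked different. The untreated difference of IFIT1 was -3.36 RPKM and its difference at 48 h -53.3 RPKM. From 0 to 48 h IFIT1 rose by 267.4 RPKM in WT and by 217.5 RPKM in KO, so the KO rise was 81.3% of that in WT while the fold was larger, 229-fold against 62.9-fold. For IFI44, IFIT3, ISG15 and OASL the KO rise was 93.2%, 90.1%, 90.1% and 89.1% of the WT rise. Of the 11 genes, 7 had a smaller rise in RPKM in KO. The KO minus WT difference of the rise was -49.9 RPKM (SE 3.71) for IFIT1, -65.0 (SE 45.4) for ISG15 and -54.8 (SE 82.2) for IFITM3, and 126.3 (SE 5.27) for MX1. These values were not tested.

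**Figure D4:**
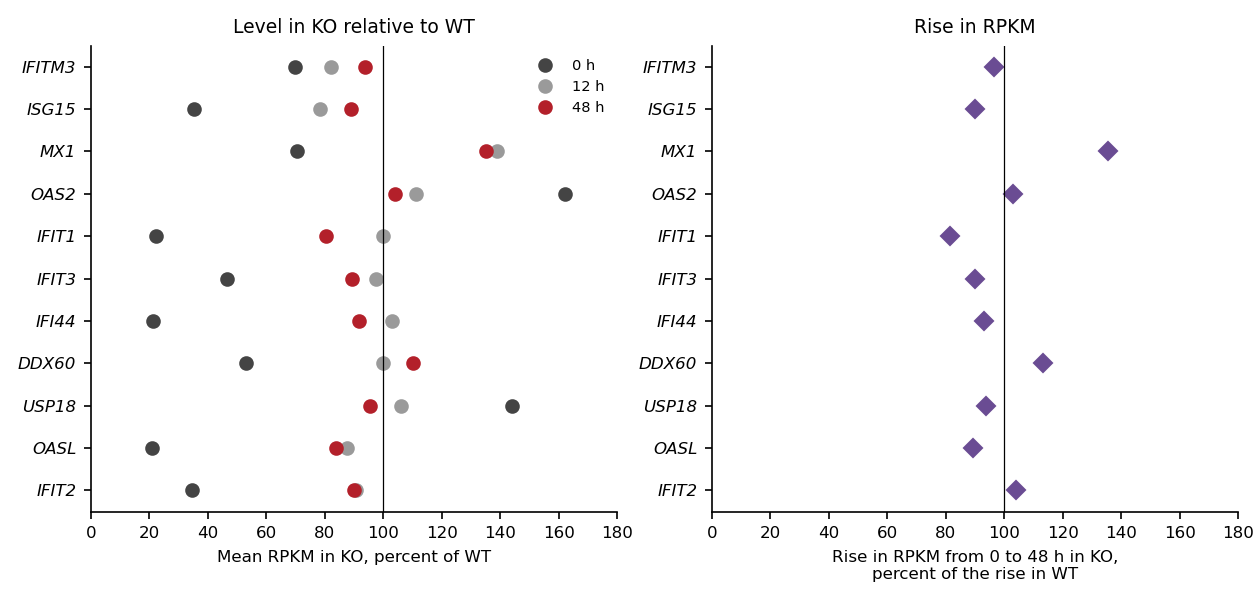
The left panel gives mean RPKM in KO as a percent of WT at 0 h (black), 12 h (grey) and 48 h (red) for the 11 called genes, and the right panel the rise in RPKM from 0 to 48 h in KO as a percent of that in WT. IFIT1, IFI44 and OASL were at 22.1%, 21.1% and 20.8% of WT at 0 h, and at 80.4%, 91.6% and 83.8% at 48 h, and the rises lay between 81.3% (IFIT1) and 135% (MX1).

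The next 14 genes by p-value did not pass. KO against WT was called at 48 h only for 7 of them, at 0 h only for 3, at both times for 3 and at neither for 1. Among the 7 were 4 listed interferon genes, SAMD9, GBP1, APOL3 and TLR3, each at a lower level in KO at 48 h. SAMD9, an antiviral restriction factor, was at 39.3, 37.1 and 38.7 RPKM in WT and 29.6, 27.6 and 30 RPKM in KO at 48 h, with a difference of -0.39 (adjusted p 0.000165) against -0.01 at 0 h. Its interaction was -0.38 (SE 0.0709, adjusted p 0.0791), just outside the threshold, as that of USP18 was just inside.

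GBP1, a guanylate-binding GTPase, was at 14.2, 15.8 and 15.1 RPKM in WT and 9.37, 8.55 and 10.2 RPKM in KO at 48 h, where KO was lower in each library. At 12 h it was at 33.3 ± 1.75 RPKM in WT and 32.9 ± 1.07 RPKM in KO. The interaction was -0.51 (SE 0.101, adjusted p 0.111), and it was called when WT replicate 2 at 0 h was left out. APOL3, of the apolipoprotein L family, was at 4.22, 4.57 and 4.73 RPKM in WT and 2.06, 1.47 and 1.6 RPKM in KO at 48 h, with an interaction of -0.999 (SE 0.2, adjusted p 0.111). TLR3, the endosomal receptor for double-stranded RNA, was at 5.12, 5.05 and 5.21 RPKM in WT and 3.71, 3.44 and 3.39 RPKM in KO at 48 h, with an interaction of -0.50 (adjusted p 0.232). For none of these 4 was a difference between times shown by the test of the interaction.

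IFIH1, which encodes the RNA sensor MDA5, was higher in each untreated KO library and lower in each KO library at 48 h, with differences of 0.20 and -0.21, neither called (adjusted p 0.0647 and 0.0617). Its interaction was -0.41 (adjusted p 0.126). Outside the interferon lists, BNIP3, a mitophagy receptor, was at 64.4, 64.5 and 66.9 RPKM in WT and 53.0, 52.8 and 54.5 RPKM in KO at 48 h. BNIP3 KO minus WT was -0.28 at 48 h (adjusted p 4.5e-05) and -0.05 at 0 h, and the interaction -0.23 was not called (adjusted p 0.0976). TIMP3, an inhibitor of metalloproteinases, and SYNJ2BP, a protein of the outer mitochondrial membrane, were also called at 48 h only (-0.24 and -0.42), with interactions of -0.21 and -0.59 (adjusted p 0.21 and 0.0976). SYNJ2BP was higher in each untreated KO library, by 0.17, which was not called (adjusted p 0.277). The untreated difference of TIMP3 was -0.03.

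NALF2 was at 0.14 to 0.28 RPKM in all WT libraries of the comparison, at 6.26, 6.28 and 6.29 RPKM in untreated KO and at 10.6, 12.0 and 10.3 RPKM in KO at 48 h. It was called at both times and its interaction of 0.64 was the first outside the threshold (adjusted p 0.058). TPD52 differed by 0.94 at 0 h and 0.39 at 48 h, both called, with an interaction of -0.55 (adjusted p 0.166). ABCE1, a ribosome recycling factor, was called higher in KO at 0 h only (0.23), as was GTF2A2, a general transcription factor subunit (0.15), with interactions of -0.24 and -0.26 (adjusted p 0.231 and 0.232). U2AF1L4 was called lower in KO at 0 h only (-0.60), with an interaction of 0.97 (adjusted p 0.21). At 48 h each KO library lay above the WT libraries for U2AF1L4 (0.37) and below them for GTF2A2 (-0.11). Neither of these 48 h differences was called (adjusted p 0.224 and 0.188).

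The 17 interferon lists, grouped by role, held 108 tested genes. In the interaction 9 were called with a positive and 2 with a negative value. The median over the 108 was -0.02, beside -0.01 over all genes tested, and 61 of 108 were below 0, beside 7076 of 13280. The called genes are therefore a minority of the lists. Between genotypes, 23 of the 108 were lower and 2 higher in KO at 0 h, where 2.07% of all genes were called lower and 2.82% higher. At 48 h 20 were lower and 2 higher, beside 2.16% and 2.03% of all genes. The 20 lower genes at 48 h became 13 with a pseudocount of 0.1 and 12 without WT replicate 2 at 48 h or without KO replicate 1 at 48 h. The 23 at 0 h became 10 in a fit on the libraries of that comparison alone.

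The listed genes called between genotypes overlapped in part between the times. Of the 108, 15 were called at 0 h only, 12 at 48 h only, 10 at both times in the same direction and 71 at neither. Of the 15 at 0 h only, 13 were lower in KO. Beside the called interaction genes they include IFITM1, IFITM2, IFI6, IRF9, HLA-B, PSMB8 and HELZ2, none with a called interaction. IRF9, the DNA-binding part of ISGF3, was at 6.12 ± 0.271 RPKM in untreated WT against 4.01 ± 1.04 RPKM in untreated KO, while WT and KO stood at 72.6 ± 4.38 and 70.8 ± 5.41 RPKM at 48 h, with an interaction of 0.49 (adjusted p 0.675).

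Of the 12 called at 48 h only, 10 were lower in KO and 2, MX1 and IRF7, higher. IRF7, the transcription factor that amplifies interferon production, was at 15.9 ± 0.838 RPKM in WT and 25.1 ± 2.78 RPKM in KO at 48 h. Untreated IRF7 was at 0.54 ± 0.199 RPKM in WT and 0.943 ± 0.319 RPKM in KO. Its untreated difference of 0.33 was not called (adjusted p 0.123), at levels where the log scale understates changes. The IRF7 interaction was 0.30 (adjusted p 0.823). XAF1 (-0.44), RTP4 (-0.65), TRIM21 (-0.36), HLA-F (-0.69) and APOL1 (-0.72) were called lower in KO at 48 h only. At 0 h HLA-F was at -0.54 (adjusted p 0.0533), APOL1 at -0.25 and TRIM21 at -0.15, not called. The interactions of these 5 genes ran from -0.67 to -0.16 and none was called. RTP4 was listed at 0 in each untreated WT library.

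The 10 genes called at both times were all lower in KO. They were IFIT1, OASL, HERC5, DHX58, RIGI, UBE2L6, STING1, PSMB9, APOL2 and APOBEC3C. RIGI, the sensor of viral RNA ends, differed by -0.42 at 0 h and -0.24 at 48 h, with an interaction of 0.17 (adjusted p 0.782). DHX58, a related sensor, differed by -0.78 and -0.61, with an interaction of 0.17 (adjusted p 0.912). STING1, the adaptor of cytosolic DNA sensing, differed by -0.24 and -0.22, with an interaction of 0.01. For the 8 of these genes other than IFIT1 and OASL, no change of the difference between 0 and 48 h was called.

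By role, the positive called interactions lay in the IFIT list (3 of 4 genes, median 0.79), the IFITM and BST2 list (1 of 4, median 0.39), the ISG15 list (1 of 7), the OAS list (1 of 5), the MX list (1 of 2), the IFI6, IFI27, IFI35 and IFI44 list (1 of 5) and the nucleic acid sensors (1 of 12). No gene was called among the receptor, JAK and ISGF3 genes (0 of 7), the interferon regulatory factors (0 of 6), MHC class I and peptide loading genes (0 of 15) or the 19 other antiviral effectors. The same held for the APOBEC3 (0 of 4), GBP (0 of 3), PARP and DTX3L (0 of 5) and APOL genes (0 of 4). Over all genes tested 0.0828% were called, and over the 108 listed genes 9 were called with a positive and 2 with a negative value. With so few calls, a list without one is not shown to differ from the others. All 4 APOL genes and all 3 GBP genes had interactions below 0, with medians of -0.30 and -0.10. CXCL10 and CXCL11, ligands of CXCR3, had interactions of 0.31 and 0.40, not called. Their median was 0.354, and 1.27 with a pseudocount of 0.1, where neither was called. Their untreated levels were close to 0, at 0.223 RPKM in WT and 0.0433 RPKM in KO for CXCL10, and 0.363 and 0.1 RPKM for CXCL11. Median-of-ratios scaling changed the sign of none of these list medians and moved the median of all genes from -0.0107 to -0.0042.

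**Figure D5:**
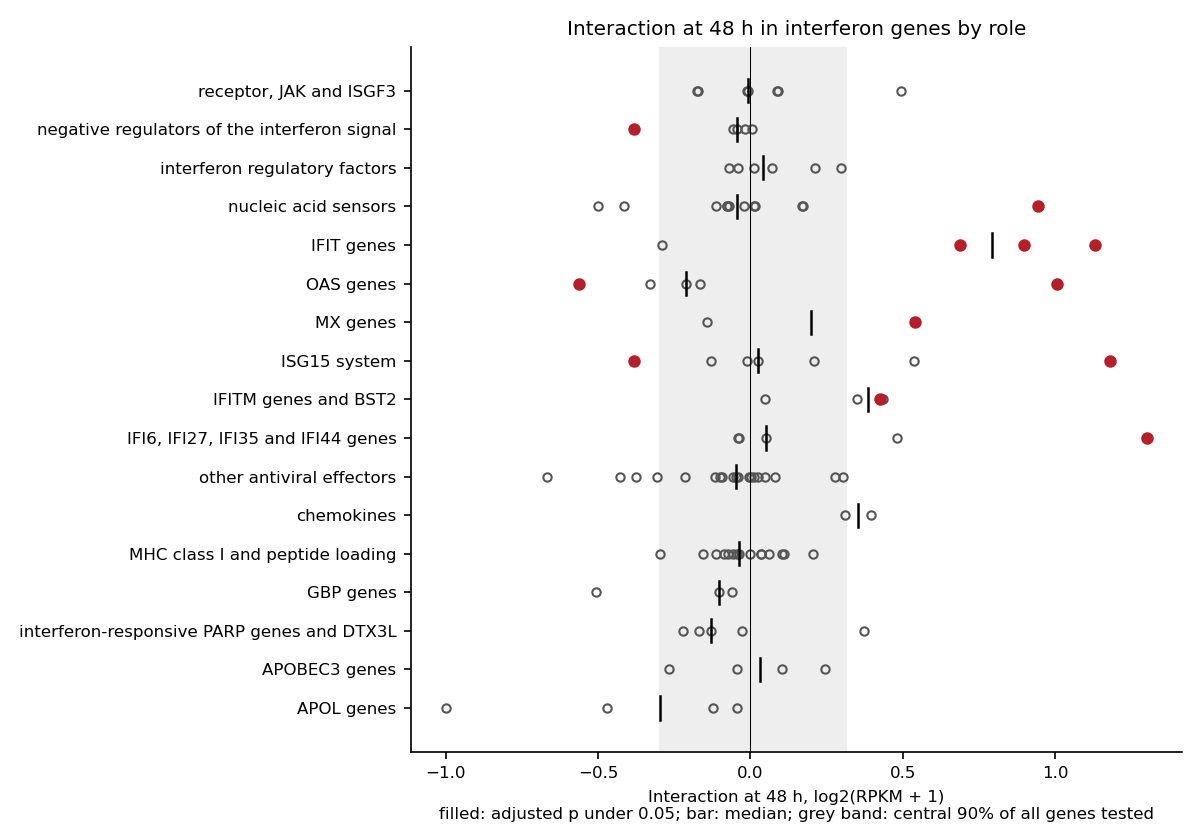
Each circle is a tested gene of an interferon list, placed by its interaction at 48 h in log2(RPKM + 1); filled red circles are called, bars are list medians, and the grey band from -0.30 to 0.31 holds the central 90% of all genes tested. USP18 appears in 2 lists, and the called genes lie outside the band, with the APOL3 circle at -0.999 not called.

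SP100, the targeted gene, was at 30.1, 31.9 and 27.9 RPKM in untreated WT against 16.0, 14.2 and 15.2 RPKM in untreated KO. At 48 h it was at 127.1, 123.7 and 131.3 RPKM in WT and 59.5, 57.4 and 62.4 RPKM in KO. KO transcript was present in each library, at 50.5% of WT at 0 h and 46.9% at 48 h, and its interaction was -0.14 (SE 0.0835, adjusted p 0.844). SP110, a neighbouring relative, was at 7.61 ± 0.676 and 7.76 ± 0.741 RPKM in the untreated genotypes, and was lower in KO at 48 h (adjusted p 0.0161), at 65.2 ± 2.52 and 52.9 ± 3.66 RPKM at 48 h, with an interaction of -0.32 (adjusted p 0.562). Of 12 PML body and HIRA histone chaperone genes, 0 were called in the interaction, at 0 h or at 48 h. The shares over all genes were 0.0828%, 4.89% and 4.19%, so counts of 0 of 12 do not set these genes apart.

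The lists of other cell states held no called interaction: 0 of 11 basal, 0 of 11 differentiation and 0 of 15 proliferation genes. With 0.0828% of all genes called, counts of 0 in lists of this length do not set them apart. All 11 basal markers had interactions above 0, with a median of 0.06, beside 6204 of 13280 genes above 0. Between genotypes, 10 of the 11 were below 0 at 0 h (median -0.165), with 2 called lower in KO. At 48 h 9 were below 0 (median -0.0618), with 1 called lower. Over all genes 2.07% were called lower at 0 h and 2.16% at 48 h. Of 15 fibroblast markers 6 were measured and 3 tested, of which 1, VIM, was called lower in KO at 0 h and at 48 h. The 6 were at a summed level of 383.8 to 397.3 RPKM in untreated WT, 261.1 to 266.4 in untreated KO, 279 to 304.6 in WT at 48 h and 194.2 to 202.8 in KO at 48 h, nearly all of it VIM. VIM differed by -0.59 at 0 h and -0.57 at 48 h, with an interaction of 0.02 (adjusted p 0.965), while COL1A1 was at 1.67 ± 0.356 RPKM in untreated WT against 1.48 ± 0.225 RPKM in untreated KO. The part of the feeder layer in the genotype differences was not tested. Of the immune markers 3 of 7 were measured and none was called in the interaction; CD68 was lower in KO at 0 h (-0.35, adjusted p 0.0101).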

How the data were processed

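RNA was sequenced from 18 libraries (6 groups of 3 replicates, called biological by the series' design text). The authors deposited a table of RPKM values for 16472 Ensembl gene IDs, rounded to 2 decimals. Per the submitters' processing notes, cutadapt, STAR 2.6.1, RSEM 1.3.0, limma 3.50.3 and hg19 were used; their roles, the gene filter and the reads behind the RPKM total are not given in the sources used here. Symbols from a gene ID table covered 12401 of 13280 genes tested.

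Values were transformed to log2(RPKM + 1). Genes with at least 1 RPKM in at least 3 libraries were fitted with a cell-means model on all 18 libraries in limma 3.58.1 (R 4.3.3), with a mean trend in the variances, Benjamini-Hochberg adjustment and a threshold of 0.05. P-values measure the spread between these samples only. The model was run on simulated data with shifts in KO at 48 h only. Shifts at 0 h were not simulated, and the outcome is not reported here. Linear RPKM differences were not tested. Relative depth used 676 low genes, with 68.7% of single-read values within 3% of the fit. The named genes were SP100, the 11 called genes, the next 14 by p-value, and, from each of 17 interferon lists, members called between genotypes at either time or else those with the highest and lowest interaction (not all are printed); any other member was named after its values were seen. The comparison, gene lists and rule were chosen with earlier results of these data known. Alternatives were a pseudocount of 0.1, no filter, a mean of at least 5 RPKM, median-of-ratios scaling, the libraries of a comparison only, no variance trend, a block for the replicate number, and omitting each library in turn. Some members of the lists are not reported here.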

Additional observations from a re-analysis of the deposited data

Results flagged for a closer look

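The response to interferon at 48 h differed between the WT and KO lines, by the test of the interaction itself, for 11 genes. On the log2(RPKM + 1) scale the values were 1.01 for OASL, 1.13 for IFIT1, 0.541 for MX1, 1.3 for IFI44, 0.688 for IFIT3, 0.898 for IFIT2, 1.18 for ISG15, -0.563 for OAS2, 0.944 for DDX60, 0.424 for IFITM3 and -0.382 for USP18. For 10 of them most of the value was present as a genotype difference in the untreated libraries. For MX1 most of it was present at 48 h on this scale, which understates a difference between untreated levels close to 0. Single outlying libraries within the groups of 3 were not tested.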

How the results depend on the processing

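Over 25 alternatives, 3 of the 11 interaction calls (OASL, IFIT1 and IFI44) held in each; IFIT2, IFIT3 and ISG15 were lost in 1, MX1 in 2, OAS2 in 6, DDX60 in 8, IFITM3 in 19 and USP18 in 22, and no sign changed. Fits on the libraries of each comparison only gave 3 interaction calls, 306 and 250 genes for KO against WT at 0 and 48 h, 945 for interferon in KO, 2 interaction calls at 0 h only, and 10 and 13 listed interferon genes lower in KO at 0 and 48 h; these fits use fewer samples. A pseudocount of 0.1 gave 13 of the last count. Leaving out each library in turn gave 7 to 11 interaction calls, 390 to 658 genes at 0 h, 375 to 554 at 48 h, 1225 to 1741 and 1159 to 1776 genes for interferon in WT and KO, 4 to 8 interaction calls at 0 h only, and 19 to 23 and 12 to 22 listed genes lower at 0 and 48 h. The lowest counts came without WT replicate 2 at 48 h (7 interactions) and without WT replicate 2 at 0 h (390 genes). The cause was not tested. With the replicate block 9 interactions were called, without IFITM3 and USP18; deviations of same-numbered libraries correlated at -0.084 to 0.157, with 1 of 18 pairs over 0.1, and 2 of 12 libraries correlated best with their own number, so the numbers were not taken to pair the samples. Without counts, the depth behind low untreated values is unknown.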
